A study of Mus musculus with 6 samples.

Results

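The 10 genes described here encode chaperones of the endoplasmic reticulum (ER) and genes that the transcription factor XBP1 is known to induce: Hspa5, Hsp90b1, Hyou1, Pdia4, Sdf2l1, Dnajb9, Manf, Creld2, Herpud1 and Xbp1 itself. They were taken by symbol from a deposited expression table of 20273 gene entries, each was found once, and all 10 lay among the 11803 genes that were expressed highly enough to test (at least 1 CPM, which is 1 read in every 1000000 of a library, in at least 3 libraries). The table holds 6 RNA sequencing libraries of mouse SCLC (small cell lung cancer) cells, of lung origin per the labels, grown in RPMI medium with fetal bovine serum. The 3 ERBB2 KO libraries come from cells transfected with a Cas9 construct against Erbb2, a receptor tyrosine kinase gene, selected with puromycin and sorted as single clones, and the 3 WT libraries from SCLC cells without that edit. Per the study's methods its murine SCLC lines were grown from tumours of mice with conditional deletion of Rb1 and Trp53, which both groups would then share. The sources do not say how many clones or parental lines stand behind the 6 libraries, so the p-values measure only the spread between these libraries. The comparison of ERBB2 KO with WT asks how the RNA levels of these genes differ between the groups. An effect of targeting Erbb2 and a difference between parental lines or clones cannot be told apart with these libraries.

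Proteins that enter the secretory route fold inside the ER with the help of chaperones, enzymes that form disulfide bonds, and glycosylation. When folding falls behind, 3 sensors in the ER membrane, IRE1, ATF6 and PERK, start the unfolded protein response. IRE1 splices the messenger of Xbp1, the spliced form encodes an active transcription factor, and XBP1 and ATF6 then induce ER chaperones through short promoter elements. Secretory and plasma cells are known for high levels of these genes. CPM counts all reads of Xbp1 and does not separate its spliced from its unspliced form.

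The promoter elements are shown first because XBP1 and ATF6 are known to act through them. RefSeq promoter windows of the build GRCm38.p6, from 250 bases before to 50 after the annotated start, were held for 8 of the 10 genes. Hyou1 and Manf had no entry. Exact letters were searched on both strands for the ER stress response element (CCAAT, 9 bases of any kind, then CCACG), its variant II (ATTGG, 1 base, CCACG), the unfolded protein response element (TGACGTG followed by G or A) and the shared 5-base core CCACG, which lies inside the first pair of elements. The stretches that hold a whole element are given here on the gene's own strand, with the matched letters in capitals and position -1 as the base before the start.
Hspa5 (chr2:34771921-34772055, plus strand, -169 to -35): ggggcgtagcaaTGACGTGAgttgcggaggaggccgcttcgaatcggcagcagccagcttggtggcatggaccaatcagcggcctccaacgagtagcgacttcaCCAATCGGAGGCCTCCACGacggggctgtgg
Hsp90b1 (chr10:86705521-86705668, minus strand, -224 to -77): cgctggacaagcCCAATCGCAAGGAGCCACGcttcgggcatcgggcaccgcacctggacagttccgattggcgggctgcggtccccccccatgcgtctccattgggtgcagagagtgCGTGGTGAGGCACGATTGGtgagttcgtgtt
Creld2 (chr15:88819508-88819550, plus strand, -138 to -96): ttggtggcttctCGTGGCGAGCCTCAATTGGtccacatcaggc
Herpud1 (chr8:94386365-94386399, plus strand, -64 to -30): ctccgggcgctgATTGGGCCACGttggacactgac

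The ER stress response element stood in 3 of these 8 promoters, those of Hspa5, Hsp90b1 and Creld2, and in 39 of all 32851 promoters in the table (0.119%). Hsp90b1 held it at 2 places, at -212 to -194 in the direction of the gene and at -107 to -89 on the opposite strand. Herpud1 was the 1 gene with variant II, at -52 to -42, which 12 promoters in all carried (0.0365%). The capitals at the left of the Hspa5 sequence are the unfolded protein response element at -157 to -150, present in 367 promoters (1.12%). The core CCACG occurred in every window but that of Xbp1, and in 32.8% of all promoters. Of 24 promoters of other ER chaperones and foldases 5 held the exact ER stress response element (Calr, Canx, Dnajc3, Ero1b, listed as Ero1lb in the expression table, and Pdia6). A match describes these letters and is not a measured binding site.

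**Figure D1:**
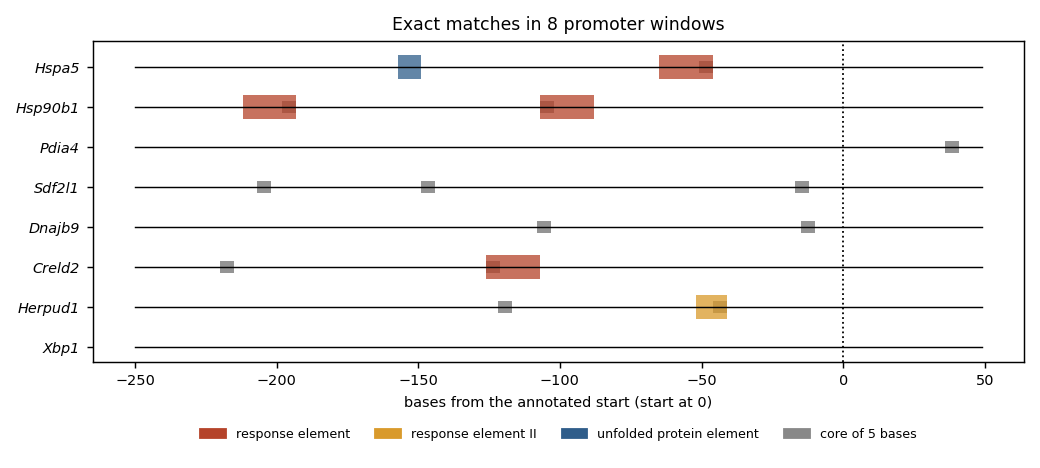
Exact matches in the promoter windows of 8 genes, by distance in bases from the annotated start. Whole elements (tall boxes) lie in Hspa5, Hsp90b1, Creld2 and Herpud1, the core CCACG (short grey boxes) in 7 of 8 windows, and Xbp1 holds none of the letters searched.

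The whole series had 8927461 to 11792342 reads per ERBB2 KO library and 10983851 to 13255671 per WT library, so that 3 reads equal 0.226 to 0.336 CPM. Erbb2 itself measured 12.1, 6.19 and 2.80 CPM in ERBB2 KO 1 to 3, against 10.7, 3.95 and 6.64 CPM in WT 1 to 3. The groups overlap, so the RNA level of the targeted gene does not check the labels. ERBB2 KO 1 stood apart on the second principal component (30.9% of the variance), and WT 2 and WT 3 on the first (46.6%). The X inactivation transcript Xist measured 0.112, 0.0848 and 0 CPM in ERBB2 KO 1 to 3, against 0, 208 and 178 CPM in WT 1 to 3, so that WT 2 and WT 3 were the libraries that held its reads in number. Of 10 neuroendocrine markers 5 were in the table: Ncam1 carried nearly all of their summed level of 122 to 353 CPM in ERBB2 KO and 277 to 1279.8 CPM in WT, and Chgb and Dll3, which define such cells, were at no more than 3 reads everywhere. Uchl1 of the same list had no reads in ERBB2 KO, against 0.546, 26.6 and 10.7 CPM in WT 1 to 3, and Syp was at no more than 0.56 CPM in any library. For the epithelial cell type of the labels 5 of 6 markers were in the table, without Epcam. Krt8 and Krt18 were present in every library (summed epithelial markers 1407 to 1939.7 CPM in ERBB2 KO, 741 to 2417 CPM in WT). Krt19 measured 0.112, 108 and 122 CPM in ERBB2 KO 1 to 3, against 253, 17.2 and 33.4 CPM in WT 1 to 3. Cldn4 was at no more than 0.604 CPM in any library. Cdh1 was at no more than 0.336 CPM in ERBB2 KO and at 0.182, 0.242 and 10.0 CPM in WT 1 to 3. Of 6 plasma cell markers 3 were in the table, with Prdm1 and Pou2af1 at no more than 3 reads in any library, while the summed level, carried by Sdc1, was 88.2 to 102 CPM in ERBB2 KO and 72.6 to 86.4 CPM in WT. In bulk RNA, fewer cells of a type and less RNA per cell cannot be told apart.

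No difference between ERBB2 KO and WT in these 10 genes passed the test. In limma's fit over all 11803 genes 0 of 10 passed an adjusted p of 0.05, where 0% of all genes did, and the lowest adjusted p over all genes was 0.267. At an unadjusted p below 0.05, 0 of 10 were higher and 0 of 10 lower, beside a background of 5.96% of all genes higher (703) and 7.27% lower (858). The values of the groups did not overlap for 0 genes in the higher direction (8.76% of all genes) and for 1, Creld2, in the lower one (10.6%). By value 5 of the 10 were higher and 5 lower, with a median difference of -0.02 on the log2(CPM + 1) scale beside -0.04 over all genes. That scale understates the change of genes at low CPM. By library, ERBB2 KO 1 or WT 2 held the highest value of 9 of the 10, as they did for 45.9% of all tested genes.

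**Figure D2:**
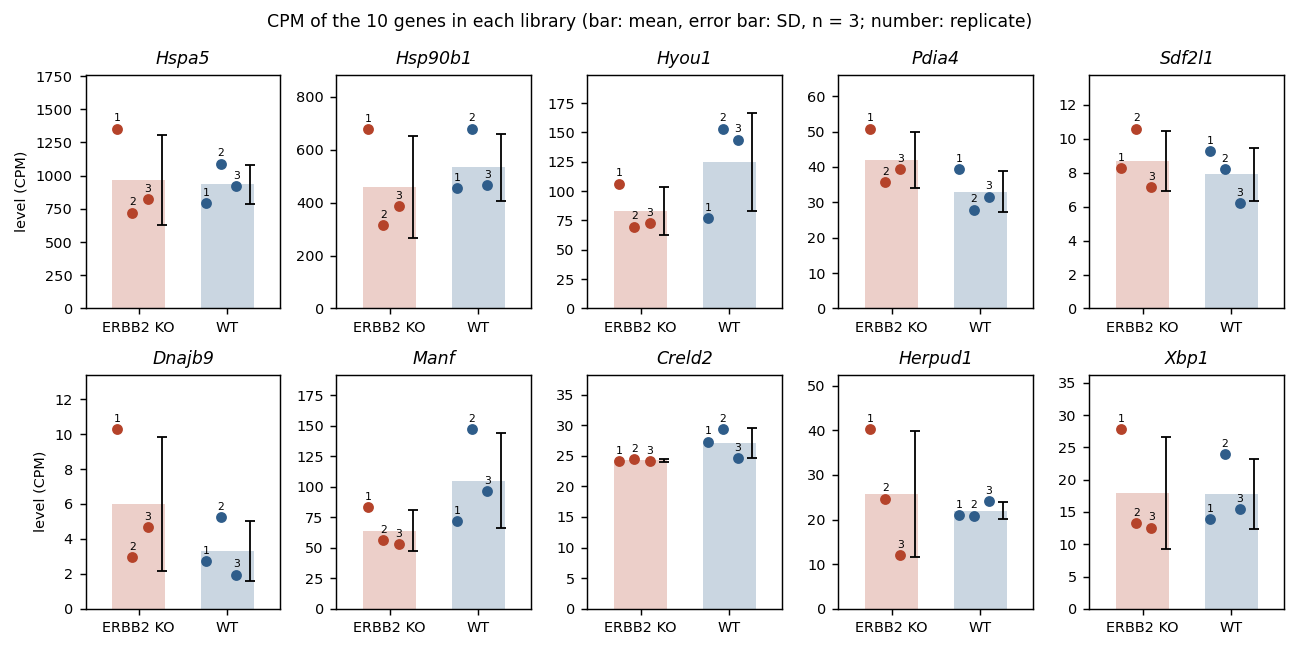
CPM of each gene in the 3 ERBB2 KO (red) and 3 WT (blue) libraries, each panel with its own axis from 0 (bar and error bar: mean and SD, small number: replicate). ERBB2 KO 1 or WT 2 is the highest library in every panel but Sdf2l1, where ERBB2 KO 2 is highest at 10.6 CPM.

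Hspa5 encodes BiP, the Hsp70 chaperone of the ER and a regulator of the 3 sensors (chr2:34772090-34776529). It measured 1355, 722 and 824 CPM in ERBB2 KO 1 to 3, against 796, 1090.1 and 920.2 CPM in WT 1 to 3. ERBB2 KO 1 was the highest library and ERBB2 KO 2 the lowest, so the ERBB2 KO values enclose all 3 WT values. The means were 967 ± 340 CPM in ERBB2 KO and 935 ± 148 CPM in WT (SD, n = 3 each). The log2 difference, fitted by limma to log2(CPM + 1) of each library, was 0.005 ± 0.26 (SE, adjusted p = 0.996). Its 95% interval, -0.62 to 0.63, leaves room for a difference of either sign. The annotated span of Hspa5 shares 43.3% of its bases with Rabepk, and how overlapping reads were counted is not given in the sources used here.

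Hsp90b1 encodes GRP94, the Hsp90 chaperone of the ER, which folds a narrow set of secreted and membrane proteins (chr10:86690841-86705444). It measured 679, 315 and 387 CPM in ERBB2 KO, against 456, 680.4 and 466 CPM in WT. ERBB2 KO 1 and WT 2 were level at the top, and the groups overlap. The log2 difference was -0.27 ± 0.31 (SE, adjusted p = 0.723). Without ERBB2 KO 1 it was -0.59, at an unadjusted p of 0.0384 and an adjusted p of 0.285 by limma. In that fit 1251 of all 11803 genes were lower at an unadjusted p below 0.05. Hspa5 and Hsp90b1, each measured on 3719 to 13532 reads per library, thus both had ERBB2 KO 1 above ERBB2 KO 2 and 3.

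Hyou1 encodes GRP170, a large chaperone that exchanges nucleotides on BiP (chr9:44379490-44392369). Its values were 106, 69.8 and 72.8 CPM in ERBB2 KO, against 77.3, 153 and 144 CPM in WT. WT 2 and WT 3 lay above the other 4 libraries, a pattern that 19.1% of all tested genes share, while WT 1 lay among the ERBB2 KO values. The log2 difference was -0.55 ± 0.31 (SE, interval -1.27 to 0.18, adjusted p = 0.463). Set against WT 1 alone, without the WT libraries that hold Xist reads, it was 0.08.

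Manf encodes a small soluble ER protein that binds BiP and is also secreted (chr9:106888753-106891938). It measured 83.1, 56.2 and 53.0 CPM in ERBB2 KO, against 71.7, 148 and 96.2 CPM in WT. As for Hyou1, WT 2 and WT 3 were the highest libraries, and WT 1 lay below ERBB2 KO 1. The means were 64.1 ± 16.5 CPM in ERBB2 KO and 105 ± 38.7 CPM in WT (SD, n = 3 each). Of the 10 genes Manf had the lowest p, with a log2 difference of -0.67 ± 0.31 (SE, interval -1.39 to 0.05) at an unadjusted p of 0.0635 and an adjusted p of 0.397 by limma. The difference was -0.40 without WT 2 and -0.19 against WT 1 alone. A fit in which each library gets its own weight passed Hyou1 (-0.90, adjusted p = 0.0297) and Manf (-0.87, adjusted p = 0.0393), among 1759 genes of the table, while the other alternatives passed neither gene (adjusted p of 0.132 or more for every one of the 10 genes).

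Creld2 encodes an ER protein induced by ER stress and linked to disulfide exchange (chr15:88819646-88826681). It was the most even of the 10, with 24.1, 24.5 and 24.1 CPM in ERBB2 KO, against 27.3, 29.4 and 24.6 CPM in WT. The groups do not overlap, by a gap of 24.5 CPM in ERBB2 KO 2 to 24.6 CPM in WT 3. On 215 to 365 reads per library that gap is within counting error. The log2 difference was -0.15 ± 0.19 (SE, adjusted p = 0.739).

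Pdia4 encodes ERp72, a protein disulfide isomerase (chr6:47796141-47813512). It measured 50.9, 35.8 and 39.4 CPM in ERBB2 KO, against 39.4, 28.0 and 31.6 CPM in WT. ERBB2 KO 1 was again highest, while WT 2, at the top for Hsp90b1, Hyou1, Manf and Creld2, was the lowest library here, and WT 1 was level with ERBB2 KO 3. The difference was 0.34 ± 0.23 (SE, interval -0.19 to 0.87, adjusted p = 0.526).

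Sdf2l1 encodes a soluble ER protein that works with the J-domain co-chaperones of BiP (chr16:17130138-17132383). It measured 8.29, 10.6 and 7.17 CPM in ERBB2 KO, against 9.29, 8.22 and 6.19 CPM in WT, from 69 to 125 reads per library. ERBB2 KO 2 was highest (exact 95% Poisson interval 8.82 to 12.6 CPM, for counting error only) and WT 3 lowest (4.92 to 7.68 CPM). The groups overlap, with a difference of 0.12 ± 0.27 (SE, adjusted p = 0.867).

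Dnajb9 encodes ERdj4, a J-domain co-chaperone of BiP that also restrains IRE1 (chr12:44205897-44210068). Its values were 10.3, 2.97 and 4.67 CPM in ERBB2 KO, against 2.73, 5.24 and 1.96 CPM in WT. The spread was the widest of the 10 genes, with the highest library 5.25 times the lowest. ERBB2 KO 1 rested on 92 reads (exact 95% Poisson interval 8.31 to 12.6 CPM, for counting error only), above WT 2, the next library at 5.24 CPM. The other 5 libraries held 26 to 65 reads, and the difference of 0.63 ± 0.47 (SE, interval -0.48 to 1.74) had an adjusted p of 0.574. Leaving out 1 library moved it to between 0.21 (without ERBB2 KO 1) and 0.97 (without ERBB2 KO 2).

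Herpud1 encodes an ER membrane protein of the degradation machinery that removes misfolded proteins (chr8:94386429-94395371). It measured 40.3, 24.7 and 12.05 CPM in ERBB2 KO, against 21.0, 20.9 and 24.1 CPM in WT. The 3 WT libraries lay close together, and the ERBB2 KO libraries spread to both sides of them, with the SD at 14.2 CPM in ERBB2 KO and 1.85 CPM in WT. The log2 difference was 0.06 ± 0.41 (SE, adjusted p = 0.952).

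Xbp1 encodes the transcription factor itself (chr11:5520641-5525993). It measured 27.9, 13.2 and 12.6 CPM in ERBB2 KO, against 13.9, 23.9 and 15.5 CPM in WT. ERBB2 KO 1 and WT 2 were the highest libraries, as for Hspa5 and Hsp90b1, and for Xbp1 the other 4 lay close together. The log2 difference was -0.05 ± 0.37 (SE, interval -0.91 to 0.82, adjusted p = 0.966).

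**Figure D3:**
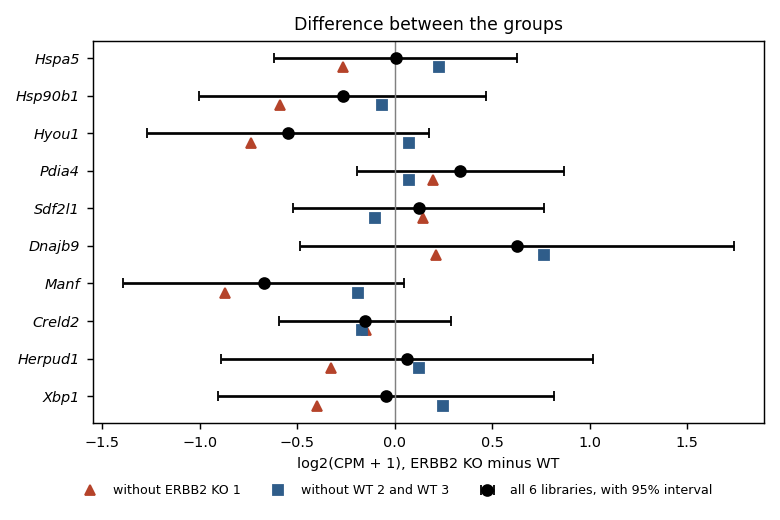
Difference in log2(CPM + 1), ERBB2 KO minus WT, for each gene, with the 95% interval from all 6 libraries (black), without ERBB2 KO 1 (red triangles) and without WT 2 and WT 3 (blue squares, no interval drawn). All 10 intervals include 0. The median of the 10 differences is -0.02 with all libraries, -0.30 without ERBB2 KO 1 and 0.07 without WT 2 and WT 3.

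Each gene was then centred on its own mean over the 6 libraries, which removes its level and leaves only the pattern. The mean of the 10 centred log2 values was 0.43, -0.23 and -0.28 in ERBB2 KO 1 to 3, against -0.13, 0.27 and -0.07 in WT 1 to 3. In ERBB2 KO 1, 9 of the 10 genes were above their own mean, and in WT 2, 8 of 10, where 51.5% and 50.6% of all tested genes were. In ERBB2 KO 2 and 3, 2 of 10 were (49.7% and 44.6% of all genes), and in WT 1 and WT 3, 3 of 10 (51.3% and 56.2%). These counts are a description of the 10 genes and were not tested. ERBB2 KO 1 was the highest library for 5 genes (Hspa5, Pdia4, Dnajb9, Herpud1 and Xbp1), where 26.1% of all tested genes peaked, and WT 2 for 4 (Hsp90b1, Hyou1, Manf and Creld2), where 19.8% did. The centred log2 values of the 10 genes had a median SD of 0.45 over the 6 libraries, beside 0.40 for all tested genes. Without ERBB2 KO 1, the library where most of the 10 were above their mean, the median difference between the groups was -0.30. Over all tested genes it was -0.04 in that fit, and 7 of the 10 genes were lower. The median of the 10 was 0.12 without ERBB2 KO 3 and 0.07 without WT 2 (-0.03 and -0.05 over all tested genes).

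**Figure D4:**
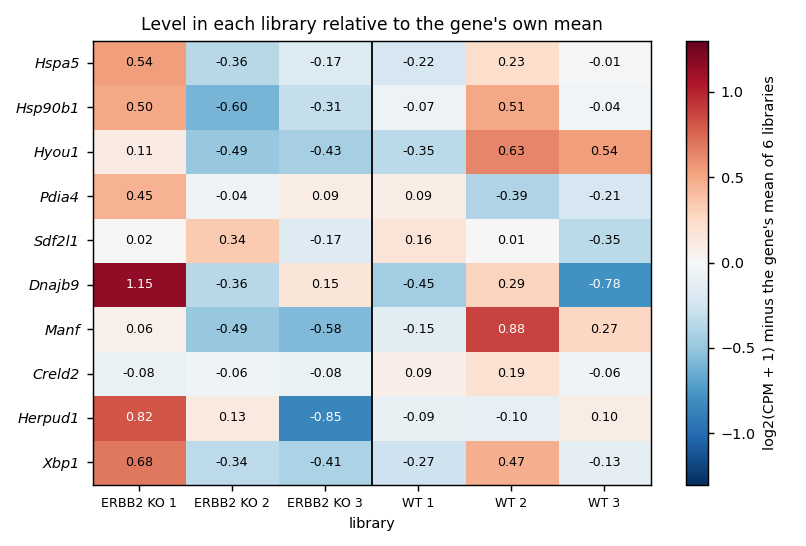
log2(CPM + 1) of each gene in each library minus that gene's mean over the 6 libraries (red above, blue below, the line divides ERBB2 KO from WT). ERBB2 KO 1 and WT 2 are above the mean for 9 and 8 of the 10 genes, and the largest single value is 1.15, Dnajb9 in ERBB2 KO 1.

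Markers of other cell types differed between the libraries, but not all in the order of the 10 genes. Summed fibroblast markers (5 of 6 in the table) were 305, 80.1 and 48.9 CPM in ERBB2 KO 1 to 3, against 51.5, 57.0 and 229 CPM in WT 1 to 3. ERBB2 KO 1 and WT 3 were high, and WT 2 was level with the low libraries. Different genes carried these sums, Dcn (267 CPM) and Pdgfra (30.5 CPM) in ERBB2 KO 1 and Col1a2 (199.8 CPM) in WT 3, while the collagen genes Col1a1 and Col1a2 were each at 0.896 CPM in ERBB2 KO 1 and Col3a1 was at 5.94 CPM there, against 72.3 CPM in ERBB2 KO 2. Summed leukocyte markers (4 of 6 in the table) were 36.6, 8.06 and 11.4 CPM in ERBB2 KO, against 11.4, 20.7 and 16.7 CPM in WT, mostly from Csf1r and, in ERBB2 KO 1, Lyz2 at 24.5 CPM, with Ptprc, which marks all leukocytes, at no more than 0.415 CPM in any library. Endothelial markers (3 of 4 in the table) stayed below 1 CPM in sum, with Cdh5 at no more than 3 reads. The part of fibroblast or leukocyte RNA in the library pattern was not tested.

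Among the 10 genes Hspa5, Xbp1 and Hsp90b1 followed the mean pattern most closely, with a root mean square distance from it of 0.10, 0.16 and 0.18 in log2(CPM + 1), and Dnajb9 least closely, at 0.47. Among the genes outside the set nearest to that pattern over the 6 libraries, of 7491 with a mean of at least 10 CPM, were Map7d1 (distance 0.06), Orc3, Rab22a, Sfmbt1 and Sdcbp (each 0.08). Map7d1, which encodes a microtubule-associated protein, measured 93.0, 57.6 and 57.1 CPM in ERBB2 KO, against 61.6, 74.2 and 65.9 CPM in WT. Its highest libraries were ERBB2 KO 1 and WT 2, as in the mean of the 10 genes. With 6 libraries and 7491 genes compared, these near matches are a description.

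The other 26 ER chaperones and foldases were also divided, with 10 higher and 16 lower by value and a median log2 difference of -0.14. Of these 1 was higher (background 5.96%) and 2 lower (background 7.27%) at an unadjusted p below 0.05, shares near those of all genes, and 0 passed the adjustment. Ppib, a prolyl isomerase of the ER, measured 63.3, 47.0 and 42.3 CPM in ERBB2 KO, against 71.7, 143 and 85.2 CPM in WT, with no overlap (-0.92 ± 0.30, SE, adjusted p = 0.35). Txndc5, a disulfide isomerase, had 23.7, 22.6 and 19.4 CPM in ERBB2 KO and 36.4, 44.6 and 26.1 CPM in WT, also without overlap (-0.65, adjusted p = 0.35). P4hb, the founding protein disulfide isomerase, went the other way by value, with 598, 397 and 470 CPM in ERBB2 KO and 325, 294 and 397 CPM in WT, WT 3 touching ERBB2 KO 2 (0.52, adjusted p = 0.361).

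The lectin chaperones of the calnexin cycle did not share a direction. Canx, the membrane-bound one, measured 719, 462 and 584 CPM in ERBB2 KO, against 376, 445 and 437 CPM in WT, with no overlap (0.47 ± 0.20, SE, adjusted p = 0.377). Calr, its soluble counterpart, measured 636, 471 and 601 CPM in ERBB2 KO, against 479, 868 and 810 CPM in WT (-0.30, adjusted p = 0.622). Here WT 2 and WT 3 were the high libraries, as for Hyou1 and Manf. Pdia3, the disulfide isomerase that works with both, was level, at 341, 319 and 343 CPM in ERBB2 KO and 261, 416 and 337 CPM in WT (0.01, adjusted p = 0.988).

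Of 8 stress sensors, processing proteases and related factors 2 were higher and 6 lower by value, 0 at an unadjusted p below 0.05 in either direction. Ern1, which encodes IRE1, the enzyme that splices Xbp1, measured 32.9, 15.5 and 10.8 CPM in ERBB2 KO, against 12.02, 20.5 and 11.01 CPM in WT. ERBB2 KO 1 and WT 2 were its highest libraries, as for Xbp1 (log2 difference 0.33, adjusted p = 0.762). Atf6 had 25.4, 50.5 and 46.5 CPM in ERBB2 KO and 36.2, 32.9 and 31.0 CPM in WT, with ERBB2 KO 1 the lowest library (0.23, adjusted p = 0.745). Eif2ak3, which encodes PERK, had 1.46, 3.31 and 1.97 CPM in ERBB2 KO and 3.37, 3.38 and 3.62 CPM in WT. These do not overlap, at low levels (-0.50, adjusted p = 0.498). Creb3l2 (-0.59) and Creb3 (-0.27), ER-bound transcription factors, overlapped between the groups.

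ER-associated degradation, the route that Herpud1 serves, had 11 of 18 tested genes higher and 7 lower by value, with 1 and 2 at an unadjusted p below 0.05 (background 5.96% and 7.27%) and a median of 0.07. Ube2g2, a ubiquitin-conjugating enzyme, measured 33.6, 27.5 and 23.2 CPM in ERBB2 KO, against 50.9, 42.2 and 38.1 CPM in WT, without overlap (-0.63, adjusted p = 0.35). Erlec1, a lectin of the same route, was higher by value, with 48.6, 28.6 and 22.0 CPM in ERBB2 KO and 21.9, 17.8 and 14.6 CPM in WT (0.78, adjusted p = 0.373). The groups do not overlap for either gene.

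Genes of protein import into the ER, glycosylation and export leaned one way by value, in a list chosen with earlier results of these data known. Of 32 tested, 26 were lower in ERBB2 KO (6274 of all 11803 genes were), with a median of -0.26. At an unadjusted p below 0.05, 7 were lower (background 7.27%) and 0 higher, 9 did not overlap in the lower direction (background 10.6%), and 0 passed the adjustment. Spcs3, a subunit of the signal peptidase, measured 11.2, 12.6 and 14.3 CPM in ERBB2 KO, against 37.7, 59.9 and 30.2 CPM in WT (-1.62 ± 0.29, SE, adjusted p = 0.321). Sec11c, a catalytic subunit of the same enzyme, had 27.3, 21.1 and 31.3 CPM in ERBB2 KO and 36.8, 71.5 and 71.7 CPM in WT (-1.10, adjusted p = 0.328). Ssr3, a subunit of the translocon-associated complex, had 162, 161 and 177 CPM in ERBB2 KO and 204, 320.3 and 248 CPM in WT (-0.60, adjusted p = 0.35). In each of these the groups are apart and WT 1 is nearer to ERBB2 KO than WT 2 is. Against WT 1 alone 21 of the 32 were lower by value.

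The ATF4 arm, the amino acid and stress genes that the transcription factor ATF4 induces downstream of PERK, leaned the other way. This list was also chosen with earlier results of these data known. Of its 13 genes 12 were higher by value in ERBB2 KO (5529 of all 11803 genes were), with a median of 0.61. The 1 lower was Ppp1r15a (-0.16, adjusted p = 0.858), a phosphatase subunit that ends the PERK signal. Of the others 3 had an unadjusted p below 0.05 (background 5.96%), 1 did not overlap (background 8.76%) and 0 passed the adjustment. Psat1, a serine synthesis enzyme, measured 242, 335 and 323 CPM in ERBB2 KO, against 209.8, 180.0 and 215 CPM in WT, the 1 without overlap (0.56 ± 0.19, SE, adjusted p = 0.35). Trib3, a pseudokinase, had 23.5, 17.4 and 7.37 CPM in ERBB2 KO and 7.92, 2.98 and 6.04 CPM in WT (1.31, adjusted p = 0.35). Chac1, which degrades glutathione, had 9.63, 11.7 and 2.80 CPM in ERBB2 KO and 2.91, 1.93 and 2.34 CPM in WT (1.25, adjusted p = 0.353). In both, ERBB2 KO 3 lay among the WT libraries.

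Ddit3, which encodes the transcription factor CHOP, measured 57.6, 25.6 and 9.97 CPM in ERBB2 KO, against 20.7, 9.43 and 8.45 CPM in WT (1.00 ± 0.62, SE, adjusted p = 0.494). Atf4 itself had 481, 1008 and 439.7 CPM in ERBB2 KO, against 593, 416 and 409 CPM in WT, with ERBB2 KO 2 far above the others (0.36, adjusted p = 0.649). Without ERBB2 KO 1, 11 of the 13 genes were higher by value. At an unadjusted p below 0.05, 2 of these were higher (Psat1 and the cystine transporter gene Slc7a11), beside 714 of all 11803 genes. Against WT 1 alone 11 of the 13 were higher.

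**Figure D5:**
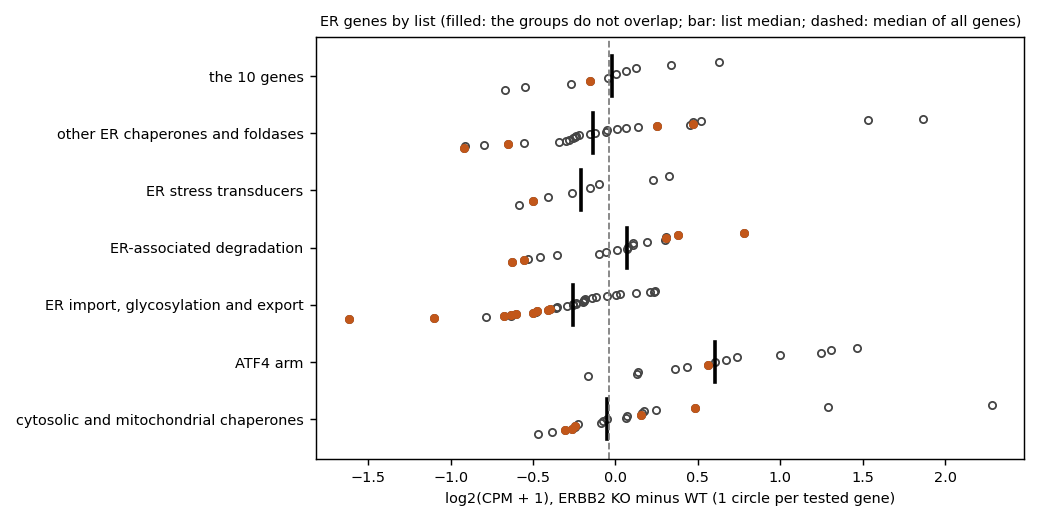
Difference in log2(CPM + 1), ERBB2 KO minus WT, for each tested gene of 7 lists (filled circles: the groups do not overlap, bars: list medians, dashed line: median of all tested genes, -0.04). The 10 genes are spread about 0 (median -0.02), import, glycosylation and export genes lie mostly below 0 (median -0.26) and ATF4 arm genes mostly above (median 0.61), with 0 genes past the adjusted threshold in any list.

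Chaperones outside the ER gave a list of the same family for comparison. Of 19 tested genes of the cytosol and mitochondria 9 were higher and 10 lower by value, 0 with an unadjusted p below 0.05, with a median of -0.05. The genes with the smallest p were Hspa1b, Trap1 and Hspa9. Trap1, the mitochondrial Hsp90, had 39.5, 45.2 and 38.6 CPM in ERBB2 KO and 36.1, 24.97 and 27.4 CPM in WT (0.48, adjusted p = 0.386). Hspa9, the mitochondrial Hsp70, had 348, 431 and 374 CPM in ERBB2 KO and 393, 670.5 and 565 CPM in WT (-0.47, adjusted p = 0.413). Hspa1b, an inducible Hsp70 of the cytosol with a near-identical copy in Hspa1a, so that its reads are uncertain, had 7.95, 8.40 and 6.23 CPM in ERBB2 KO and 7.92, 1.37 and 0.981 CPM in WT (1.29, adjusted p = 0.387). WT 1 lies with the ERBB2 KO libraries for these genes except Trap1, where it is nearest to them.

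Genes that share the exact promoter element were divided by value as well. Of 13 tested genes with the ER stress response element 4 were higher and 9 lower by value, with a median of -0.15. The groups did not overlap for 1 in the higher direction (background 8.76%) and 3 in the lower one (background 10.6%). At an unadjusted p below 0.05, 0 were higher (background 5.96%) and 1 lower (background 7.27%), near the share of all genes. The gene at that p was Zfp57, a zinc finger gene of genomic imprinting (-1.20, adjusted p = 0.321). It measured 0.112, 0.17 and 0.208 CPM in ERBB2 KO, against 1.55, 1.45 and 2.04 CPM in WT. No ERBB2 KO library held more than 2 of its reads. Leaving out Hspa5, Hsp90b1 and Creld2, 3 were higher and 7 lower, with a median of -0.21 and 0 past the adjustment. Within the set Hspa5 and Hsp90b1, whose elements are printed above, had ERBB2 KO 1 and WT 2 as their highest libraries, while Creld2 was within 1.22 times from its lowest to its highest library. Dnajc3, which carries the same element and encodes a J-domain co-chaperone of BiP, had 92.2, 118 and 105 CPM in ERBB2 KO and 117, 122 and 110.1 CPM in WT (-0.15, adjusted p = 0.700). ERBB2 KO 1 was its lowest library, opposite to Hspa5.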

How the data were processed

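Values were deposited by the authors as log2 CPM per gene with a small prior. Per the labels the libraries were TruSeq total RNA, while the methods describe Lexogen QuantSeq of 3' ends. The submitters' processing notes name build mm10. The aligner, counter and use of strand are not given in the sources used here. Raising 2 to each deposited log2 value and subtracting the floor of 0.179 CPM gave columns in which 100% of values were whole multiples of 1 read within 0.1 of a step, so reads and library totals were recovered. Genes with at least 1 CPM in 3 libraries were fitted by limma (version 3.58.1, R 4.3.3) on the log2(CPM + 1) scale (eBayes with trend, group only, two-sided, Benjamini-Hochberg over 11803 genes, threshold 0.05), after a test on simulated data. Entries whose symbols had become dates (14) were not tested, and repeated symbols (23) are not named. An exact permutation test of 3 against 3 libraries cannot give p below 0.1, so none was run.

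The 10 genes and all lists were chosen with earlier results of these data known. Named are the 10 genes, the 3 genes of each further list with the smallest unadjusted p (repeated symbols passed over), Calr, Canx, Pdia3, Ern1, Atf6, Eif2ak3, Atf4 and Ddit3 in any case, and the 6 genes above 10 CPM nearest to the mean pattern. Of these, 2 genes are not reported here and remain in all counts. Dnajc3, Pdia6, Ppp1r15a, Slc7a11, Zfp57 and the marker genes were named after their values were seen. Symbols are the file's, and coordinates and promoters are RefSeq GRCm38.p6, counted from 1. Alternatives were other pseudocounts, filters and scalings, voom on recovered reads, array weights, a replicate block, each library left out, and WT libraries with Xist reads left out. List counts and counts at an unadjusted p under these alternatives were added after seeing the data. An analysis of protein ends was not run.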

Additional observations from a re-analysis of the deposited data

How the results depend on the processing

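Apart from the fit with array weights, 0 genes and 0 of the 10 genes passed under every setting that kept all 6 libraries, 1561 genes had an unadjusted p below 0.05 with limma on log2(CPM + 1), and 1553 with voom. Array weights passed 1759 genes, 2 of the 10 (Hyou1 and Manf, also the 2 lower at an unadjusted p below 0.05) and gave 17 import and export genes lower at an unadjusted p below 0.05. In that fit 2458 of all 11803 genes were lower at that p. With 1 library left out, 368 to 1336 of all genes were lower at that p (1251 without ERBB2 KO 1, 1336 without WT 1) and 250 to 1137 higher. Leaving out 1 library each passed 0 to 146 genes (30 without ERBB2 KO 1, 146 without WT 1), with 0 to 2 of the 10 lower at an unadjusted p below 0.05 (Hsp90b1 and Manf without ERBB2 KO 1, Hyou1 and Manf without WT 1), 2 to 12 import and export genes lower, 0 to 4 ATF4 arm genes higher, and a median of the 10 of -0.30 to 0.12. Without WT 2 and WT 3 the WT group is WT 1 alone, which the fit assumes to vary like the other libraries. Only differences are therefore given for that setting. The sign turned for Xbp1 under quantile normalization (0.017), for Hspa5 with voom (-0.0012), for Hspa5 (-0.22) and Herpud1 (-0.37) with array weights, and without WT 2 and WT 3 for Hyou1 (0.075), Sdf2l1 (-0.10) and Xbp1 (0.25). With 1 library left out the ranges were -0.27 to 0.19 for Hspa5, -0.33 to 0.50 for Herpud1, -0.023 to 0.24 for Sdf2l1 and -0.40 to 0.18 for Xbp1. The cause of these changes was not tested.

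Over 11803 genes the deviations of same-numbered libraries from their group means had correlations of -0.22, -0.16 and -0.05. With 3 libraries per group these values cannot decide whether the numbers pair the libraries. With the replicate block 0 genes passed, 1286 had an unadjusted p below 0.05, and the lowest adjusted p of the 10 was 0.525. Dnajb9 was not tested with the filter at 5 CPM. The depth limits Dnajb9 (26 to 92 reads) and Sdf2l1 (69 to 125 reads) most.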
